A study of Mus musculus with 8 samples.

Results

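The corticosteroid receptors, the enzymes that control access of hormone to them and a group of their classical target genes were examined in mouse kidney under the mineralocorticoid DOCA (deoxycorticosterone acetate). The 10 genes were taken by name: the glucocorticoid receptor Nr3c1, the mineralocorticoid receptor Nr3c2, the 11-beta-hydroxysteroid dehydrogenases Hsd11b1 and Hsd11b2, and the targets Sgk1, Tsc22d3, Fkbp5, Zbtb16, Per1 and Errfi1. All 10 were among the 15948 genes of the deposited expression table. RNA came from 8 kidney samples, 5 labelled Sglt2Cre DOCA (the control group here) and 3 labelled Arhgef11Sglt2 DOCA, of a study whose title names systemic and proximal tubule knockout of Arhgef11, a guanine nucleotide exchange factor, in hypertension and kidney injury. Sglt2 (gene Slc5a2) is a glucose transporter of the early proximal tubule, so a Cre under its control would act in that segment and not in the distal segments where mineralocorticoids act. Both labels name Sglt2 and DOCA, so no kidney without the hormone was compared, and the labels give no genotype beyond these names. Dose and duration of DOCA, diet, strain, age and sex are not stated in the labels. The kidneys came from 2 numbered studies that are not assigned to single samples, and nothing in the labels says that each sample was a separate animal, so the p-values below reflect only how far these samples differ from each other, which may in part be technical.

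Glucocorticoid and mineralocorticoid receptors are ligand-activated transcription factors that wait in the cytoplasm bound to chaperones, move to the nucleus when they bind hormone, and recognise the same DNA element. Cortisol and corticosterone bind both receptors, and in aldosterone-sensitive cells of the distal nephron and collecting duct Hsd11b2 inactivates them so that aldosterone can act; Hsd11b1 does the reverse in other cells, among them proximal tubule. DOCA is a mineralocorticoid that does not depend on this gate. In the distal nephron the activated mineralocorticoid receptor raises the kinase Sgk1, which keeps the epithelial sodium channel at the cell surface.

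In the short stretches searched before gene starts, an exact copy of the DNA element was found for 1 of the genes. Sequence elsewhere was not searched. Windows of 250 bases before annotated gene starts were taken from RefSeq sequences of build GRCm38.p6 (another build than the GRCm39 of the deposited table), and 7 of the 10 genes (not Nr3c1, Hsd11b2 and Zbtb16) had at least 1 window. The full palindromic glucocorticoid response element, searched on both strands as AGAACA and TGTTCT separated by any 3 bases, was found in 3 of all 32851 windows (0.00913%), and 1 of the 3 was a window of Sgk1, where the element begins 189 bases before the start. The windows of Fkbp5 and Per1 are shown beside it because these target genes had the highest levels in the Arhgef11Sglt2 libraries relative to the controls among the targets with a window; neither held the element, nor the 6 bases AGAACA on either strand (found in 16.1% of all windows), and each held 1 E-box, CACGTG (6.02% of all windows), the element bound by the clock factors. The E-box reads the same on both strands. In the Sgk1 window an E-box and a copy of AGAACA on the opposite strand also overlap by 2 bases near the 5′ end. Such matches describe the letters of these windows and not binding. Sgk1 and Per1 also had further windows, which are not printed. None of those of Sgk1 held the full element, and that of Per1 held neither AGAACA on either strand nor an E-box. Capitals mark the full response element in Sgk1 and the E-box in Fkbp5 and Per1.
Sgk1, chr10:21993640-21993889, + strand: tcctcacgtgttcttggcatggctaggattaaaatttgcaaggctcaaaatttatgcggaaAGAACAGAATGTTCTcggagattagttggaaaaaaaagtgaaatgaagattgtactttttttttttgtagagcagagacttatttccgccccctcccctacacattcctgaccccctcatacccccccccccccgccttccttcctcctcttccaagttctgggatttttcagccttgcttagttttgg
Fkbp5, chr17:28486150-28486399, - strand: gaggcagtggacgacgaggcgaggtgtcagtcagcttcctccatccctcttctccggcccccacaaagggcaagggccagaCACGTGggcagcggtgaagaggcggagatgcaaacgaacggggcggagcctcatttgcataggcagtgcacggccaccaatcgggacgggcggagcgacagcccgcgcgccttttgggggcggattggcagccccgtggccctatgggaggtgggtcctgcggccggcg
Per1, chr11:69098699-69098948, + strand: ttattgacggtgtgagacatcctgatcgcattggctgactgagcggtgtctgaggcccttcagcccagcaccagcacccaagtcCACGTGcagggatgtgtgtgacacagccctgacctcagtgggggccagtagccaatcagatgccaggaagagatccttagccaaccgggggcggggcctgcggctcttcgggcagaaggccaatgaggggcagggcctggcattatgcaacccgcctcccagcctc

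The values below are normalized counts, obtained by inverting the authors' variance-stabilizing transformation. Their total was between 43000000 and 46700000 in every library. From the spacing of the lowest values, the reads assigned to the deposited genes were roughly estimated at 33000000 to 59500000 a library. The estimate is uncertain, because only 31.4% to 54.5% of the lowest values fell near whole multiples of that spacing. Differences, standard errors (SE) and tests are on the deposited log2 scale, with limma across all genes and Benjamini-Hochberg adjustment at 0.05. Markers of kidney segments were abundant in all libraries: the 6 markers of the early proximal tubule summed to 381625 to 428592 normalized counts in the controls and to 237803 to 366916 in the Arhgef11Sglt2 libraries. Of 8 adrenal cortex genes, which would mark attached adrenal tissue, 2 were analysed (Star and Mc2r), and their sum was 41 to 142 in the controls and 92 to 178 in the other group. Arhgef11 itself stood at 3680 ± 162 normalized counts in control kidneys (SD, n = 5) against 3587 ± 564 in those labelled Arhgef11Sglt2 (SD, n = 3; limma adjusted p = 0.834), so whole-gene values of whole kidney did not check the labels, and each direction given is that of libraries named by their label.

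None of the 10 genes passed the adjusted threshold in limma, against 2.22% of all genes tested (0.627% higher and 1.59% lower). At an adjusted p under 0.10 there were 2, Nr3c1 and Hsd11b2, against 6.51% of all genes. At an unadjusted p under 0.05 there were 5 members, against 21.1% of all genes: Fkbp5, Zbtb16 and Per1 on the higher side (9.04% of all genes) and Nr3c1 and Hsd11b2 on the lower side (12.1%). Receptors and dehydrogenases had lower means in the Arhgef11Sglt2 libraries in 4 of 4 genes, and targets had higher means in 5 of 6, the exception being Tsc22d3. Of all 15948 genes, 7647 had a positive and 8301 a negative log2 difference. The signs of Hsd11b1, Tsc22d3 and Errfi1 changed under some alternatives. Over the 6 targets the median log2 difference was 0.54 (median SE 0.20), and over all genes it was -0.01 (median SE 0.08). Single targets were thus estimated less precisely than most genes, and the targets were not tested as a set. The call count depended on 1 library: without replicate 1 of the Arhgef11Sglt2 group 4 of the 10 genes passed (Nr3c1, Hsd11b2, Fkbp5 and Per1, with limma adjusted p of 0.0499, 0.0218, 0.0336 and 0.0257), and without any other single library none did. Leaving out that replicate also raised the calls over all 15948 genes from 354 to 1334, so calls rose well beyond the members. Whether they rose more among the members was not tested.

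**Figure D1:**
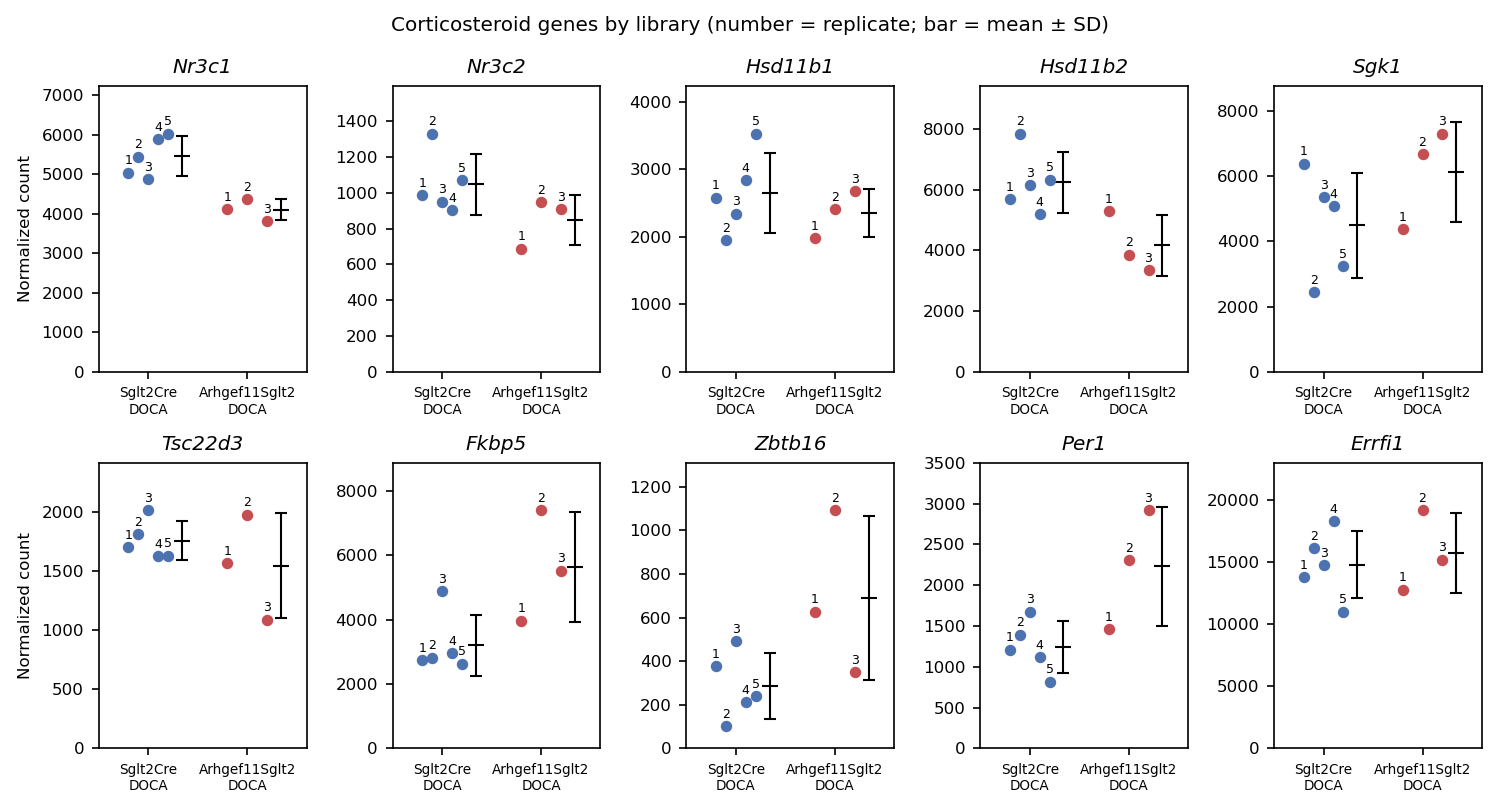
Normalized counts (y axis, from 0) of the 10 genes in each library, by group (x axis). Points are libraries with their replicate number, and bars are the mean ± SD of 5 control and 3 Arhgef11Sglt2 libraries; for Nr3c1 all 3 Arhgef11Sglt2 libraries (3817 to 4358) lie below the controls (4879 to 6023).

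The glucocorticoid receptor Nr3c1 was the 1 member of 10 whose groups of libraries did not overlap, as was the case for 14.3% of all genes (6.2% on the higher and 8.14% on the lower side). The controls, in the order of replicates 1 to 5, had 5035, 5437, 4879, 5890 and 6023 normalized counts. In Arhgef11Sglt2 replicates 1 to 3 the values were 4118, 4358 and 3817. All 3 lay below the lowest control, and the spread within each group was narrow. The control mean was 5453 ± 505 (SD, n = 5), 1.33 times the 4097 ± 271 of the other group (SD, n = 3). On the log2 scale this was -0.37 (SE 0.08, 95% interval -0.56 to -0.18), with a limma adjusted p of 0.0552, which missed the threshold. The exact permutation test (two-sided, 5 against 3) gave an unadjusted p of 0.0179, the smallest this design allows. Library names fall into 2 number ranges, a lower one with control replicates 1, 2 and 3 and Arhgef11Sglt2 replicates 1 and 2, and a higher one with the other 3 libraries. What the ranges stand for is not stated. Within the lower range the log2 difference of Nr3c1 was -0.24, and within the higher range -0.58. Markers of proximal tubule and of immune cells also differed between the libraries, as given with the cell type markers below, and their part in the Nr3c1 values was not tested. Because whole kidney was measured, fewer cells of a type and less RNA per cell cannot be told apart, here or for any gene below.

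The mineralocorticoid receptor Nr3c2, the mediator of the response to DOCA, was less abundant. Per kilobase of merged exons, the controls had 834 ± 77.2 normalized counts of Nr3c1 and 170 ± 27.4 of Nr3c2 (SD, n = 5), and the Arhgef11Sglt2 libraries 626 ± 41.4 and 137 ± 22.6 (SD, n = 3). The ratio of Nr3c1 to Nr3c2 per kilobase was 3.86 to 6.16 in the controls and 3.96 to 5.65 in the other group, so the groups overlapped fully in this ratio. Nr3c2 had 985, 1331, 951, 903 and 1069 normalized counts in control replicates 1 to 5, and 689, 947 and 910 in Arhgef11Sglt2 replicates 1 to 3. Replicate 1 of the Arhgef11Sglt2 group was below every control, and the other replicates of that group lay among the 4 lower controls. The log2 difference was -0.21 (SE 0.10, 95% interval -0.44 to 0.03; limma adjusted p = 0.289; exact permutation p = 0.125).

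Hsd11b2, the enzyme that inactivates corticosterone in aldosterone-sensitive cells, had the second member difference on the lower side with an interval clear of 0. Control replicates 1 to 5 had 5675, 7843, 6151, 5190 and 6326 normalized counts, and Arhgef11Sglt2 replicates 1 to 3 had 5288, 3856 and 3345. Replicates 2 and 3 of the Arhgef11Sglt2 group lay well below all controls, while replicate 1 sat just above the lowest of them. The control mean of 6237 ± 1001 (SD, n = 5) compared with 4163 ± 1007 in the other group (SD, n = 3), a log2 difference of -0.54 (SE 0.15, 95% interval -0.87 to -0.21; limma adjusted p = 0.0885; exact permutation p = 0.0357). Within the library number ranges it was -0.48 and -0.69. Relative to the control mean, Hsd11b2 stood at log2 values of -0.21, -0.61 and -0.79 in Arhgef11Sglt2 replicates 1 to 3, and the mean of the 8 principal cell markers at -0.23, -0.30 and 0.01. The markers went both ways, with 5 negative and 3 positive differences. The vasopressin receptor Avpr2, named after its values were seen, had 613, 405 and 196 normalized counts in these replicates against 524 to 858 in the controls. That is the order of Hsd11b2, which the mean of the 8 markers did not follow. The water channel Aqp4 had 3104, 1444 and 2259 against a control mean of 3954. The water channel Aqp2 had 12563 in replicate 3, above the 3880 to 6560 of the controls. The sum of these markers was 14708 to 19599 normalized counts in the controls and 13579 to 23148 in the other group, and none of the 8 passed the threshold. The 6 markers of the distal convoluted and connecting tubule stood at -0.18, -0.02 and -0.27, with none past the threshold. The part of cell number in the Hsd11b2 values was not tested.

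In the controls the level of Hsd11b2 relative to the mineralocorticoid receptor Nr3c2 varied little. The ratio of Hsd11b2 to Nr3c2 per kilobase lay between 19.3 and 21.7 in the 5 control libraries. In Arhgef11Sglt2 replicates 1, 2 and 3 it was 25.8, 13.7 and 12.4, outside the control range in all 3 libraries but not on the same side. This ratio was picked after its values were seen and was not tested. Control replicate 2 had the highest level of both genes among all 8 libraries.

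Hsd11b1, which regenerates corticosterone, showed no difference beyond the spread of the libraries. It had 2579, 1953, 2341, 2833 and 3525 normalized counts in control replicates 1 to 5, and 1974, 2405 and 2670 in Arhgef11Sglt2 replicates 1 to 3. All 3 Arhgef11Sglt2 values lay within the control range. The log2 difference was -0.13 (SE 0.15, 95% interval -0.46 to 0.20; limma adjusted p = 0.653), and its sign turned when only the libraries numbered 1 to 3 were compared (0.03). H6pd, which supplies the cofactor that lets Hsd11b1 work as a reductase, averaged 13608 ± 2117 normalized counts in control kidneys (SD, n = 5) against 20970 ± 3085 (SD, n = 3). All 3 Arhgef11Sglt2 libraries lay above every control, and the limma adjusted p was 0.0532.

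**Figure D2:**
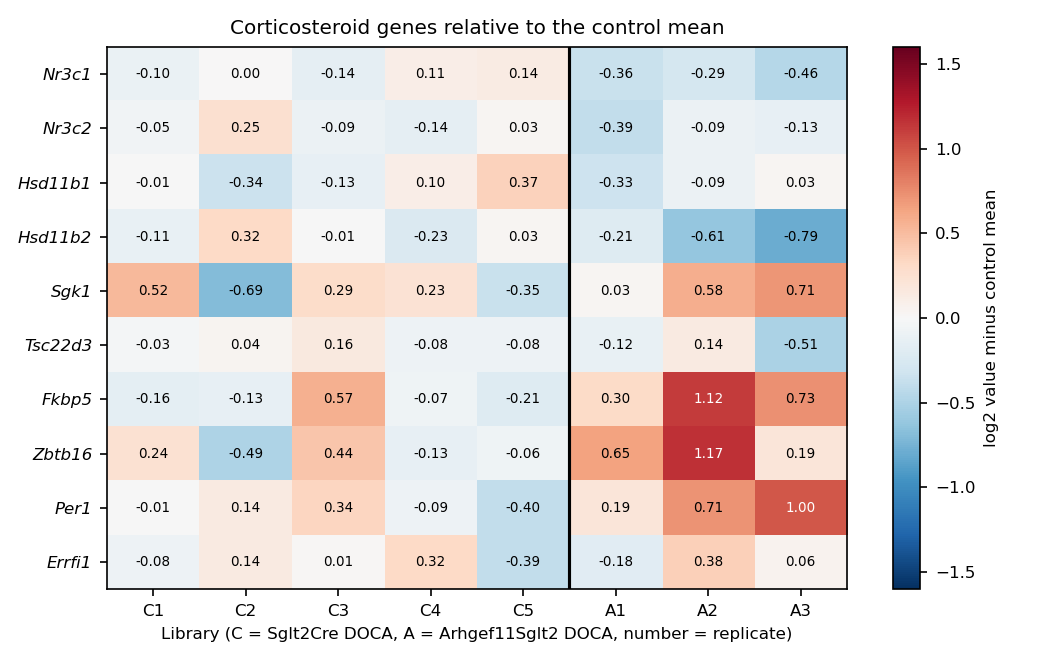
Deposited log2 value of each gene (rows) in each library (columns) minus the mean of the 5 control libraries, as colour and number; the vertical line separates Sglt2Cre DOCA from Arhgef11Sglt2 DOCA libraries. Sgk1, Fkbp5, Zbtb16 and Per1 are above 0 in all 3 Arhgef11Sglt2 libraries, Nr3c1, Nr3c2 and Hsd11b2 are below 0 in all 3, and Hsd11b1, Tsc22d3 and Errfi1 have both signs.

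Fkbp5 encodes a co-chaperone that lowers the hormone affinity of the glucocorticoid receptor and is induced by that receptor, a short negative feedback loop. Control replicates 1 to 5 had 2745, 2821, 4890, 2953 and 2631 normalized counts, and Arhgef11Sglt2 replicates 1 to 3 had 3972, 7404 and 5524. Control replicate 3 stood far above the other controls and above replicate 1 of the Arhgef11Sglt2 group, so the groups overlapped by that library alone. Means of 3208 ± 948 for the controls (SD, n = 5) and 5633 ± 1719 for the other group (SD, n = 3) gave a 1.76-fold ratio. On the log2 scale the difference was 0.72 (SE 0.21, 95% interval 0.25 to 1.18; limma adjusted p = 0.1; exact permutation p = 0.0357). It was 0.61 and 0.87 within the 2 library number ranges. Fkbp5 per kilobase was 0.44 to 1.0 times Nr3c1 per kilobase in the controls and 0.97, 1.70 and 1.45 times in Arhgef11Sglt2 replicates 1 to 3. This ratio restates the higher Fkbp5 and lower Nr3c1 given above and was not tested.

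Per1, a core repressor of the circadian clock that glucocorticoids and aldosterone also induce, had 1210, 1393, 1674, 1118 and 815 normalized counts in control replicates 1 to 5. Arhgef11Sglt2 replicates 1 to 3 had 1460, 2308 and 2921. Replicates 2 and 3 of that group exceeded all controls, and replicate 1 lay between the 2 highest controls. The ratio of means was 1.8 (1242 ± 319 for the controls, SD, n = 5, and 2230 ± 733 for the other group, SD, n = 3), with a log2 difference of 0.64 (SE 0.19, 95% interval 0.21 to 1.07; limma adjusted p = 0.108; exact permutation p = 0.0536). Within the library number ranges it was 0.29 in the lower and 1.24 in the higher. Time of day of collection is not stated. Of 16 other clock genes none passed the threshold, 10 had a positive difference and the median was 0.07. Cry1, a partner of Per1 in repression, had a ratio of 1.45 (limma adjusted p = 0.0944). Averaged over the clock list, log2 values relative to the control mean were -0.17, 0.06 and 0.33 in Arhgef11Sglt2 replicates 1 to 3, the same order of libraries as Per1 at 0.19, 0.71 and 1.0; its part in the Per1 values was not tested.

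Zbtb16, a transcriptional repressor that is among the most strongly glucocorticoid-induced genes in many cells, was the least abundant member and the most variable. It had 377, 102, 491, 212 and 238 normalized counts in control replicates 1 to 5, and 627, 1093 and 350 in Arhgef11Sglt2 replicates 1 to 3. Replicates 1 and 2 of the Arhgef11Sglt2 group were above every control, and replicate 3 lay among them. The ratio of means was 2.43, the highest of the 10 members, from 284 ± 152 in control kidneys (SD, n = 5) and 690 ± 376 in the other group (SD, n = 3). On the deposited log2 scale, which compresses low values, the difference was 0.67 (SE 0.24, 95% interval 0.14 to 1.2; limma adjusted p = 0.155; exact permutation p = 0.0714). As log2(normalized count + 1) it was 1.32.

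Sgk1, the kinase gene whose window carries the response element printed above, varied widely among the controls, with 6372, 2449, 5341, 5082 and 3227 normalized counts in replicates 1 to 5. Arhgef11Sglt2 replicates 1 to 3 had 4376, 6657 and 7296. Replicates 2 and 3 of that group were above all controls, but control replicate 1 came close to replicate 2. The log2 difference was 0.44 (SE 0.27, 95% interval -0.16 to 1.04; limma adjusted p = 0.375; exact permutation p = 0.286). The interval includes 0, and the coefficient of variation among the controls was 35.8%.

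The remaining targets did not share this pattern. Tsc22d3, which encodes the anti-inflammatory glucocorticoid-induced leucine zipper protein, had 1696, 1810, 2012, 1622 and 1628 normalized counts in control replicates 1 to 5 and 1566, 1974 and 1087 in Arhgef11Sglt2 replicates 1 to 3. Replicate 3, which had the highest Per1 and Sgk1 of all libraries, had the lowest Tsc22d3. The log2 difference of -0.16 (SE 0.13, 95% interval -0.45 to 0.12; limma adjusted p = 0.496) became 0.01 without that library. Errfi1, a feedback inhibitor of the EGF receptor, was the most abundant target, with 13792, 16153, 14758, 18324 and 11021 normalized counts in control replicates 1 to 5 and 12789, 19218 and 15230 in Arhgef11Sglt2 replicates 1 to 3. Replicate 2 of the Arhgef11Sglt2 group was above every control and the other replicates of that group lay within the control range (log2 difference 0.09, SE 0.17, 95% interval -0.29 to 0.46; limma adjusted p = 0.811), and the sign turned without Arhgef11Sglt2 replicate 2 (-0.06) or control replicate 5 (-0.01).

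**Figure D3:**
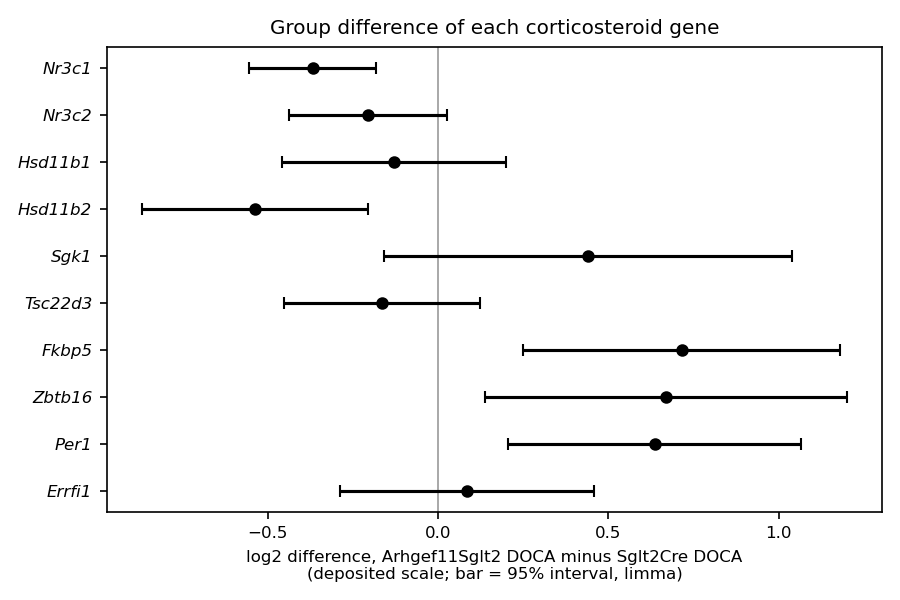
log2 difference between groups (x axis, Arhgef11Sglt2 DOCA minus Sglt2Cre DOCA, deposited scale) for each gene (y axis), with 95% intervals from limma as bars. The intervals of Nr3c1, Hsd11b2, Fkbp5, Zbtb16 and Per1 exclude 0 before adjustment, and none of the 10 genes passed after it.

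Libraries of the same group differed in which targets were high. Among the 5 controls, replicate 3 had the highest value of 4 of the 6 targets (Tsc22d3, Fkbp5, Zbtb16 and Per1) together with the lowest Nr3c1. Replicate 2 of the Arhgef11Sglt2 group was above every control for 5 of 6 targets, replicate 3 for 3 and replicate 1 for 1. By contrast, the 6 markers of the last proximal tubule segment were low in all 3 (mean log2 value relative to the controls -1.09, -1.27 and -1.18, against -0.61 to 0.54 in the controls), with 4 of 6 lower past the threshold. Early proximal tubule markers were low in replicates 1 and 3 only (-0.73, 0.05 and -0.69; controls -0.09 to 0.11), with 2 of 6 lower past the threshold. Macrophage markers stood at 0.42, -0.08 and -0.54 and fibroblast and pericyte markers at 0.35, -0.01 and -0.63, with no call among the 6 of either list. B and plasma cell markers were low in all 3 (-0.90, -0.50 and -0.77; controls -0.49 to 0.21; sums of 2862 to 12077 normalized counts in control kidneys and 720 to 2803 in the other group), with 2 of 6 lower past the threshold. Neutrophil markers summed to 166 to 391 and to 362 to 598, with 1 of 4 higher past the threshold. No marker of intercalated cells, endothelium, podocytes or T cells passed. Adipocyte markers, which would mark fat attached to the kidney, were highest in control replicate 2 (0.73; sums of 2507 to 6232 normalized counts in the controls and 3184 to 3700 in the other group, none of 6 past the threshold). The part of any of these in the member values was not tested.

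**Figure D4:**
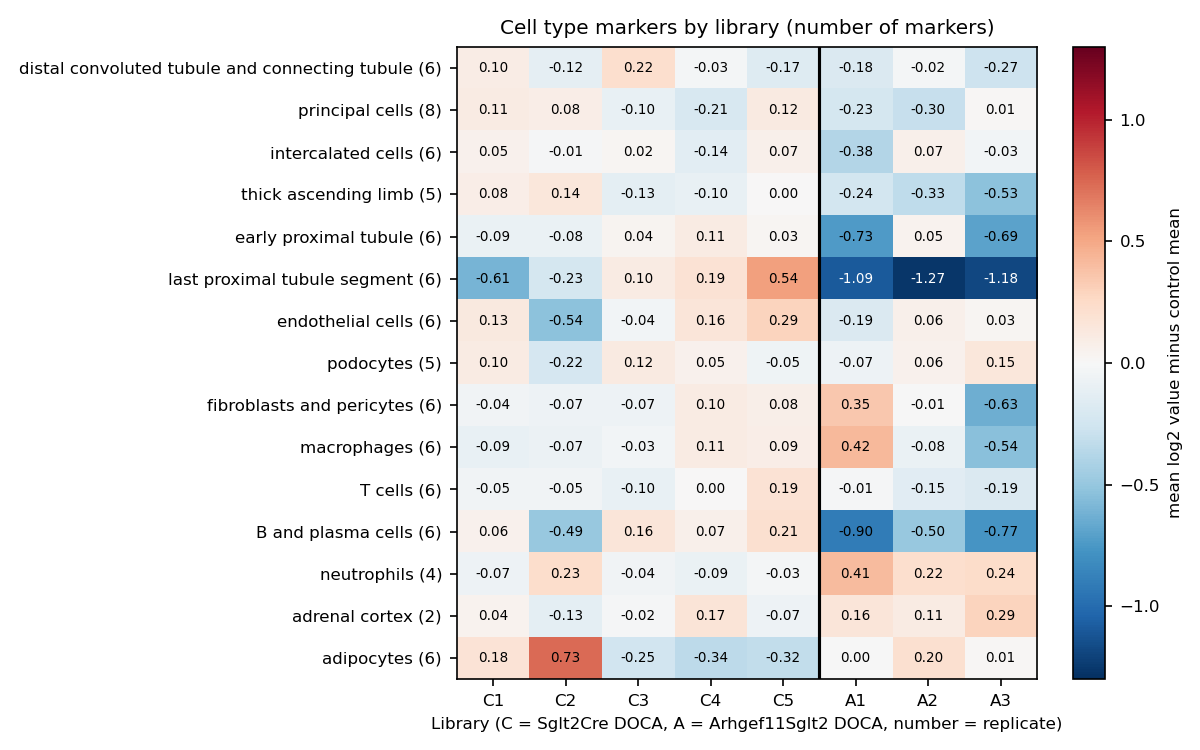
Mean deposited log2 value of each list of cell type markers (rows, number of markers in brackets) in each library (columns) minus the control mean, as colour and number. Markers of the last proximal tubule segment are lowest in the 3 Arhgef11Sglt2 libraries (-1.09 to -1.27), and principal cell markers lie between -0.30 and 0.12 in all 8 libraries.

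Around the 10 members, 116 further genes of 8 lists were analysed. Of these, 5 passed the threshold, all higher in the Arhgef11Sglt2 libraries (background 0.627% on the higher side). The 5 belonged to the glucocorticoid-induced genes and to the immediate early genes. All 8 lists were chosen with earlier results of these data known. Shares above the background may reflect that choice, and no list was tested as a set. Of 20 other glucocorticoid-induced genes, 2 were higher and none lower; 15 had a positive difference and the median was 0.26. Cebpd, an acute-phase transcription factor, was higher at 647 ± 153 normalized counts (SD, n = 3) than the 238 ± 49.9 of the controls (SD, n = 5; 2.72-fold, limma adjusted p = 0.0168). Angptl4, an inhibitor of lipoprotein lipase that glucocorticoids and fatty acids induce, was 3.36-fold higher (1578 ± 736 against 5306 ± 1710; limma adjusted p = 0.0389). Klf15, a glucocorticoid-induced regulator of amino acid breakdown, lay on the other side: 2855 ± 141 against 1966 ± 447 normalized counts, with no overlap between groups and a limma adjusted p of 0.0578. Klf15 was named after its values were seen, as was Pdk4, a fasting- and glucocorticoid-induced brake on glucose oxidation. Pdk4 had 1028 to 1784 normalized counts in the 5 controls and 2805, 6649 and 21964 in Arhgef11Sglt2 replicates 1 to 3. Its libraries did not overlap, but those of the Arhgef11Sglt2 group differed among themselves far more than the controls did (limma adjusted p = 0.0504). The list held 9 genes above and 1 gene below the control range in all 3 Arhgef11Sglt2 libraries, where 6.2% and 8.14% of all genes were so placed. Klf15 depended on single libraries: its limma adjusted p was 0.0189 without Arhgef11Sglt2 replicate 2, 0.163 without Arhgef11Sglt2 replicate 3 and 0.133 without control replicate 4.

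All 15 immediate early genes, which respond to growth factors and stress within minutes and some of which glucocorticoids also regulate, had a positive difference (median 0.43), and 3 passed. Ier3 was 2.03-fold higher (limma adjusted p = 0.0387) and the growth regulator Myc 2.42-fold (limma adjusted p = 0.0417). Zfp36, an RNA-decay factor that is itself glucocorticoid-responsive, was 1.34-fold higher (limma adjusted p = 0.0467). Averaged over the list, log2 values relative to the control mean were 0.34, 0.30 and 0.70 in Arhgef11Sglt2 replicates 1 to 3 and -0.29 to 0.16 in the controls, lowest in control replicate 2, which also had the lowest Sgk1 and Zbtb16. Its part in the Sgk1 and Per1 values was not tested. None of the 5 calls held when either Arhgef11Sglt2 replicate 3 or control replicate 4 was left out, where the limma adjusted p of Cebpd was 0.0535 and 0.0565. Without Arhgef11Sglt2 replicate 1 there were 26 calls among the 116 genes, in a setting where 1334 of all 15948 genes passed. Among the 26 were Dnaja1, Fkbp4, Hsp90aa1, H6pd, Cyp3a13, Cry1 and Erbb3, which are described below or above without a call. Without control replicates 1, 3 and 5 there were 1, 2 and 1 calls among the 116 genes.

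Of the 20 sodium and potassium transport genes that aldosterone acts on, none passed, 7 had a positive difference, and the median was -0.08. The 2 with the smallest p were Nedd4l, the ubiquitin ligase that Sgk1 restrains (4840 ± 521 against 6116 ± 510 normalized counts; limma adjusted p = 0.102), and Kcnj1, the potassium channel ROMK (14707 ± 1744 against 11139 ± 2166; limma adjusted p = 0.139). Slc12a3, the thiazide-sensitive sodium chloride cotransporter, averaged 99072 ± 13257 normalized counts in control kidneys (SD, n = 5) against 84690 ± 4666 (SD, n = 3; limma adjusted p = 0.368).

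The chaperones that hold the receptors ready for hormone had a negative difference in 12 of 12 genes, with a median of -0.28, and none passed. Dnaja1, an Hsp40 co-chaperone, averaged 13856 ± 1855 normalized counts in control kidneys against 9419 ± 1627 (limma adjusted p = 0.0647). Fkbp4, the co-chaperone that competes with Fkbp5 and favours nuclear transport of the receptor, had 8781 to 9382 in the controls, and 8347, 5986 and 5374 in Arhgef11Sglt2 replicates 1 to 3 (limma adjusted p = 0.0736). All 3 values were below the controls, and replicates 2 and 3, which had the highest Fkbp5, had the lowest Fkbp4. For the list as a whole, replicate 1 stood at the level of the controls (0.02 relative to their mean) and replicates 2 and 3 at -0.37 and -0.39. Hsp90aa1, the main stress-inducible receptor chaperone, had 22110 ± 2675 against 17916 ± 6067 normalized counts (limma adjusted p = 0.312).

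**Figure D5:**
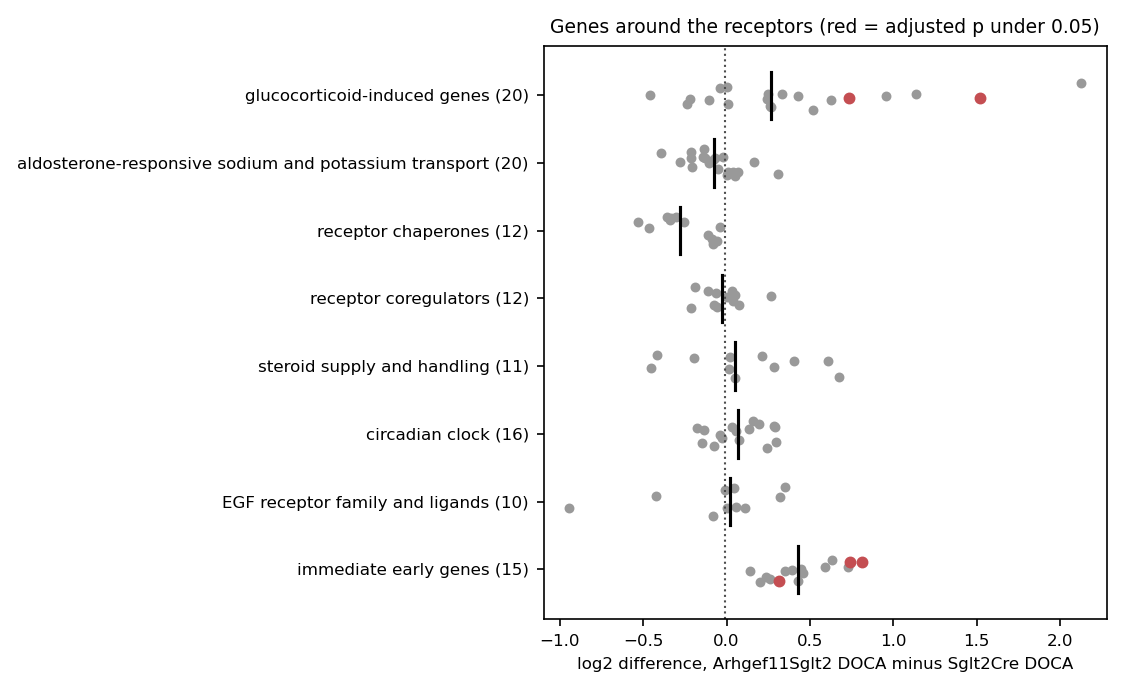
log2 difference between groups (x axis) of single genes (points, red where the limma adjusted p was under 0.05) in 8 lists (y axis, number of genes in brackets); black bars are list medians and the dotted line is the median of all genes (-0.01). The 5 red points lie among glucocorticoid-induced and immediate early genes, and all 12 receptor chaperones lie below 0.

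In the other lists no gene passed. Of 12 receptor coregulators 6 had a positive difference (median -0.03), and Ppargc1a, a coactivator of mitochondrial genes, averaged 5942 ± 161 against 5113 ± 1001 normalized counts (limma adjusted p = 0.272). Of 11 genes of steroid supply and handling 8 had a positive difference (median 0.05), with H6pd above and the drug- and steroid-oxidising Cyp3a13 next (75.6 ± 10 against 150 ± 57.1; limma adjusted p = 0.0922). Of 10 genes of the EGF receptor family and its ligands, the pathway that Errfi1 restrains, 6 had a positive difference (median 0.02). The precursor Egf, made in the distal tubule, averaged 52243 ± 6207 normalized counts in control kidneys against 28904 ± 14265, with no overlap between groups (limma adjusted p = 0.0788). With single libraries left out, the limma adjusted p of Egf was 0.0107 without Arhgef11Sglt2 replicate 2 and 0.257 without Arhgef11Sglt2 replicate 3. The 5 thick ascending limb markers stood at -0.24, -0.33 and -0.53 in Arhgef11Sglt2 replicates 1 to 3, with 1 lower past the threshold, and their part in the Egf values was not tested. The receptor Erbb3 of the EGF list had a ratio of 1.28 (limma adjusted p = 0.156).

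The genes whose values followed the receptors and Fkbp5 most closely were sought among 12698 other genes with a mean of at least 100 normalized counts, by Pearson's r of the deposited values over the 8 libraries. With so many genes and 8 libraries, high values of r arise readily, so they are given as a description. For Nr3c1 they were Gpr137b, Stxbp5l and Frrs1, with r of 0.986, 0.985 and 0.982; with the group means removed r was 0.942, 0.930 and 0.918. For Nr3c2 they were Zfp775, Pdhx and Tdrd3, with r of 0.980, 0.965 and 0.964. For Fkbp5 they were Decr1, Acap3 and Eif4ebp3, with r of 0.967, 0.963 and 0.955. With the group means removed r was 0.974, 0.946 and 0.944 for Nr3c2 and 0.924, 0.956 and 0.896 for Fkbp5, with genes in the order given. The part of cell composition in these correlations was not tested.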

How the data were processed

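Poly(A) RNA of 8 mouse kidney samples was sequenced on a NextSeq instrument from stranded libraries, per the labels' protocols. The submitters' processing notes name Salmon 1.10.0, DESeq2 and build GRCm39. Which annotation or gene filter was used is not given in the sources. For 15948 genes the authors deposited variance-stabilized log2 values, a unit inferred from the numbers, which are fractional and have the same minimum, 8.13, in all 8 columns. Inverting the transformation from that minimum gave normalized counts. Only 31.4% to 54.5% of values up to 5 steps fell within 0.02 steps of whole multiples, so no count model could be applied.

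Tests used limma 3.58.1 in R 4.3.3 (group as the only term, variance trend, Benjamini-Hochberg over 15948 genes at 0.05), checked on simulated data, and two-sided exact permutation tests. Symbols matched 15902 identifiers (99.71%). Exon lengths came from GENCODE M21 (GRCm38). The 10 members, the 8 pathway lists and 15 marker lists were chosen with earlier results of these data known. Named genes are the members, the called genes of each pathway list (otherwise the 2 with the smallest p), at most 3 markers a list, and the 3 genes most like Nr3c1, Nr3c2 and Fkbp5; Klf15, Pdk4, Slc12a3, Avpr2 and Hsp90aa1 were added after their values were seen. Some genes that fall under this rule are not reported here. Bmal1 was matched as Arntl. Alternatives covered the filter, scale, pseudocount, totals, variance model, sample weights, threshold, replicate block, library number range and each library left out.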

Additional observations from a re-analysis of the deposited data

Results flagged for a closer look

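In the 5 control libraries 1 value stood apart from the other 4 by Dixon's criterion (gap over range above 0.71) for 10 of 73 named genes; chance alone flags about 1 in 20 groups. Among the members this was Fkbp5, where control replicate 3 had 4890 normalized counts and the others 2631 to 2953. Control replicate 2 stood apart for 8 marker genes: it was lowest for Aqp4 (2288, others 3974 to 4919), Flt1 (2042, others 3339 to 4044), Podxl (7275, others 9706 to 10564), Synpo (2333, others 2934 to 3128), Igkc (2083, others 6508 to 8826), Jchain (700, others 2451 to 3092) and Mc2r (2.99, others 11 to 13.4), and highest for S100a9 (150, others 22.6 to 39.3). The same library had the highest Nr3c2 and Hsd11b2 and the lowest Sgk1, Zbtb16 and Hsd11b1 of all 8. Control replicate 1 was lowest for Lrp2 (100570, others 116321 to 119977).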

How the results depend on the processing

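Of 180 values of the 10 members under 18 alternatives, 169 kept their direction and their side of the threshold, 6 passed it and 5 changed sign. The number of members past the threshold, 0 as reported, was 1 without a variance trend (Nr3c1), 1 with sample weights (Hsd11b2), 2 at a threshold of 0.10 (Nr3c1 and Hsd11b2) and 0 to 4 when single libraries were left out. The sign changes, in genes far from the threshold, were Hsd11b1 (0.029 on the 6 libraries numbered 1 to 3, with or without the replicate block), Tsc22d3 (-0.32 to 0.0075 over the libraries left out, positive without Arhgef11Sglt2 replicate 3) and Errfi1 (-0.063 to 0.22, negative without Arhgef11Sglt2 replicate 2 and, at -0.012, without control replicate 5). The 5 further pathway genes past the threshold became 9 with the library number range as a term, 10 with a filter at a mean of 100 normalized counts, 10 with equal totals, 21 with sample weights, 18 at 0.10, and 0 to 26 with single libraries left out. Over all genes 354 calls became 874 with sample weights, 1038 at 0.10 and 24 (without control replicate 4) to 1334 (without Arhgef11Sglt2 replicate 1) with single libraries left out. They were 45 without Arhgef11Sglt2 replicate 3 and 187, 135 and 76 without control replicates 1, 3 and 5. With the replicate block the counts of pathway genes and of all genes were 0, as they were on the same 6 libraries without it, a comparison added after seeing the data. Deviations of same-numbered libraries from their group means correlated at -0.18, -0.09 and -0.01, and other pairs across the groups reached 0.11. Deviations from group means must balance around 0, so these values cannot decide whether the replicate numbers pair the samples. The lowest value of any member in any library was 102 normalized counts (Zbtb16), so each was detected in all 8 libraries.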
